A study of Mus musculus with 12 samples.

Results

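Fos, Fosb, Fosl1, Fosl2, Jun, Junb, Jund and Atf3 encode subunits of the transcription factor AP-1 or a close relative of them, and Egr1 and Ier3 are immediate early genes that respond to the same stimuli. These 10 genes were taken as a named set, by gene symbol. Of 45037 probe sets on the arrays, 14 mapped to 1 of these symbols alone. The probe set with the highest mean level stood for its gene, and the other 4 served as a check. All 10 genes passed the filter on low values and were read within a fit of 14645 genes.

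The arrays measured epithelium of the mouse prostate in 4 groups of 3. Castrated luminal cells and castrated basal cells came from C57BL/6 males that underwent surgical orchiectomy at 8 weeks of age and were killed 4 weeks later. Intact luminal cells and intact basal cells came from C57BL/6 males, also 8 weeks old at the start, that stayed intact and were killed alongside them. Every group was prepared by dissociation of the prostate and flow sorting for lineage-negative, EpCAM-positive cells, with low CD49f for the luminal and high CD49f for the basal gate. No allele, transgene or drug was part of the design, and how many animals stood behind each array was not stated. Castration removes the source of testicular androgen, on which prostate secretory cells depend.

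AP-1 is a dimer of basic leucine zipper proteins. JUN proteins can pair among themselves, whereas FOS proteins need a JUN partner to bind DNA, and the composition of the dimer sets how strongly a target gene is driven. Immediate early genes are transcribed within minutes of growth factor, stress or wound signals, through factors that are already present, and their RNAs are short-lived. Enzymatic dissociation of a tissue is itself a known trigger of many of them. All 12 arrays came from dissociated tissue, so what the genes did before dissociation was not tested.

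The sequences around the start sites of Fos, Fosb, Jun and Atf3 are shown because these genes are themselves targets of the ATF, CREB and AP-1 factors and because their levels followed different patterns over the 4 groups. Each runs from 250 bases before to 50 bases after the start, from RefSeq on GRCm38.p6, and 8 of the 10 genes were matched by symbol. The Fos sequence is chr12:85473640-85473939 on the plus strand, Fosb is chr7:19309996-19310295 on the minus strand, Jun is chr4:95052173-95052472 on the minus strand and Atf3 is chr1:191183284-191183583 on the minus strand. Capitals mark TGACG, the core bound by CREB and ATF proteins, or its reverse complement in Atf3, and TGACATCA, an AP-1-like element of the Jun promoter.
Fos: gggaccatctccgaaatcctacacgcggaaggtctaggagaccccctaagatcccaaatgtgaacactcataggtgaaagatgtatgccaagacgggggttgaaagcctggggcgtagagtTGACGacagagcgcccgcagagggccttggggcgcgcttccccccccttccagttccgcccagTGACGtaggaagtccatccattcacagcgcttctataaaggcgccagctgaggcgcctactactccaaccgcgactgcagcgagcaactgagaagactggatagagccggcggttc
Fosb: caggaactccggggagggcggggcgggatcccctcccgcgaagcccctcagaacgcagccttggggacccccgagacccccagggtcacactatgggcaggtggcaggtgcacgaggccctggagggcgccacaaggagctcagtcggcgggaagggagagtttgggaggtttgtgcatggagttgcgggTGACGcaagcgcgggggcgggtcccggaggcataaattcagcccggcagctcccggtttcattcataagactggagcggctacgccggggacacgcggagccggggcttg
Jun: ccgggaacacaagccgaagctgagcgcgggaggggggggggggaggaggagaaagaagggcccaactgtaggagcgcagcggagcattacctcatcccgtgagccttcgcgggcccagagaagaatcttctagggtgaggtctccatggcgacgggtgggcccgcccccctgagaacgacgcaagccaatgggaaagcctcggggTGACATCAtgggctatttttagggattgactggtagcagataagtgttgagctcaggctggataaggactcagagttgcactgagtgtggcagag
Atf3: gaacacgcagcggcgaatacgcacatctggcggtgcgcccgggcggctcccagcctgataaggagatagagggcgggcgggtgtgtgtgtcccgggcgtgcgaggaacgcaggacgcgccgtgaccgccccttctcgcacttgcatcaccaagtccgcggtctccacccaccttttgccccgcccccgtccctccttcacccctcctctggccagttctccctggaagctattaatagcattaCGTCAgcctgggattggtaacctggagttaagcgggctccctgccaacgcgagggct

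In all, 6 motifs were searched on both strands, and matches may overlap. TGACG was found in 4 of the 8 promoters and in 20.8% of 32851 promoters of the same length. Its first base lay at -129 and at -66 from the start in Fos, at -60 in Fosb, at -106 in Junb and, on the opposite strand, at -7 in Atf3. TGACATCA was found in Jun alone, at -45 to -38, and in 3.62% of all promoters. The EGR site GCGNGGGCG was found in Fosb and Fosl2 and in 5.55% of all promoters. The AP-1 site TGANTCA (7.81% of all promoters) and the full CRE TGACGTCA (1.79%) were found in 0 of the 8. The CArG box bound by serum response factor (1.63%) was also found in 0 of the 8. Sites further upstream than these windows were not searched, and Egr1 and Fosl1 had no window. Absence of a match therefore does not show that a gene lacks the site. The capitals were assigned after the matches were known, and a match describes letters in a window and not a bound site.

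Levels are MAS5 signals on a linear scale, in arbitrary units, which the authors had scaled to a common trimmed mean. Differences are given on the log2(signal + 16) scale with limma's standard error (SE), from 3 arrays in each group. A gene passed at a Benjamini-Hochberg adjusted p under 0.05, adjusted over all 14645 genes. A gene that passed rose or fell in the group named first. The number of arrays limits the precision. The sorts carried their markers: the 8 basal markers measured, among them Krt5, Krt14 and Trp63, summed to 11824 to 14074 signal units on luminal arrays and 96912 to 165871 on basal arrays. The 7 luminal markers summed to 116152 to 215229 on luminal arrays and 67166 to 100327 on basal arrays, so the basal sorts were not free of luminal transcripts. Fibroblast markers, 8 in all, summed to 515 to 802 in castrated luminal, 6596 to 11248 in intact luminal, 21789 to 27724 in castrated basal and 36689 to 44999 in intact basal arrays. Seminal vesicle transcripts, 5 in all, summed to 4145 to 10591 in castrated luminal, 170687 to 296200 in intact luminal, 128 to 622 in castrated basal and 22408 to 34473 in intact basal arrays. The leukocyte sum was 440 to 746 in castrated luminal, 10083 to 12334 in intact luminal, 1585 to 1841 in castrated basal and 796 to 1303 in intact basal arrays, with 4 to 7 of its 10 markers under the 40th percentile of each intact luminal array. Most of the intact luminal sum came from Cd52, with a mean log2(signal + 16) of 13.33 there. Cd52 was the 1 leukocyte marker that passed between castrated and intact luminal cells. In a sorted pool, fewer cells of a type and less RNA per cell cannot be told apart.

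All but 1 of the genes were among the brightest on every array. Between 0.0644% and 4.38% of probe sets were brighter than the probe sets of the genes other than Junb. Junb was dim, with 18.8% to 41.3% of probe sets brighter, and its signals spread widely within groups. The plot of signals by array shows this for each gene.

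**Figure D1:**
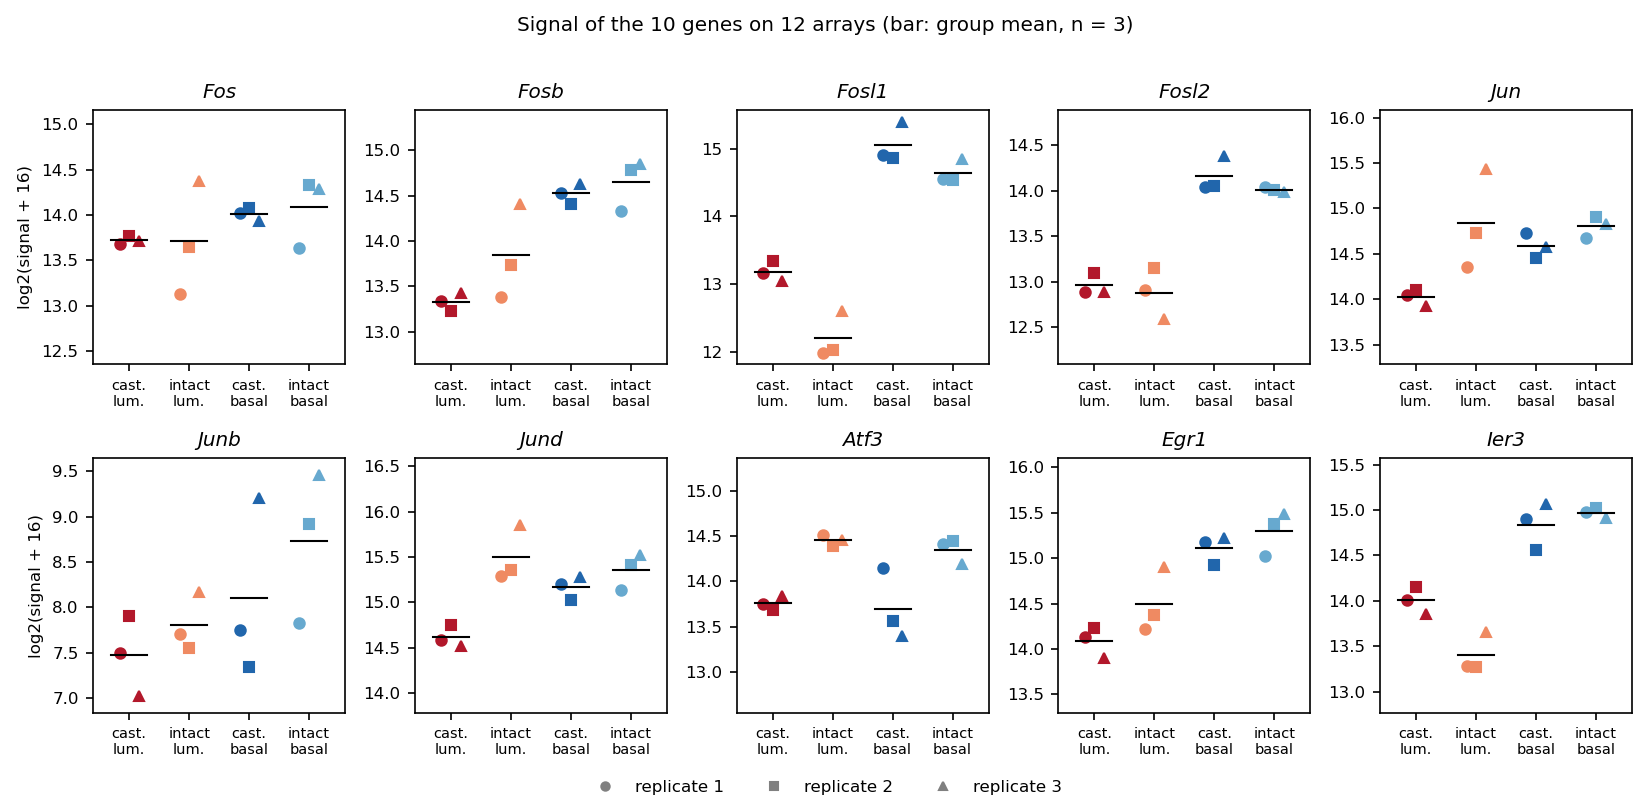
Log2(signal + 16) of the 10 genes (y axis) on each of the 12 arrays, by group (x axis), with marker shape for the replicate number and a bar for the mean of 3 arrays. Fosl1, Fosl2, Egr1 and Ier3 have all luminal arrays below all basal arrays in both castrated and intact mice, whereas Atf3 has its castrated arrays below its intact arrays in both cell types.

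The first comparison asked how the genes differed between luminal cells of castrated and of intact mice. Fosl1 and Ier3 rose and Jund, Jun and Atf3 fell, and the other 5 did not pass. Thus 5 of 10 passed, against 5.86% of all genes tested (2.9% higher and 2.96% lower). The genes other than Junb had SEs of 0.15 to 0.24, against a median of 0.59 over all genes. Smaller differences could therefore pass for them than for a typical gene. The median over the 10 genes was -0.37 and that over all genes -0.09.

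Among the FOS subunits, Fosl1, which encodes FRA1, had signals of 9159, 10335 and 8434 in castrated luminal cells, against 4023, 4152 and 6172 in intact luminal cells. Every castrated array lay above every intact one, a 1.98-fold rise (0.98 ± 0.19, adjusted p = 0.00506). Fos, the prototype of the family, had 13170, 13972 and 13386 in castrated luminal cells, against 8962, 12784 and 21258 in intact luminal cells. The intact arrays of Fos spanned the castrated ones on both sides, and the difference was 0.01 ± 0.24 with a 95% confidence interval of -0.51 to 0.52, turning to -0.07 under 75th percentile scaling. Fosb, whose protein resembles FOS, had 10372, 9596 and 11005 in castrated luminal cells, against 10701, 13664 and 21709 in intact luminal cells. The groups overlapped, at 11005 in a castrated and 10701 in an intact sample, and Fosb did not pass (-0.51 ± 0.21, adjusted p = 0.184). Fosl2, which encodes FRA2, had 7554, 8743 and 7578 in castrated luminal cells, against 7646, 9054 and 6131 in intact luminal cells. Its groups overlapped as well, and its difference was 0.08 ± 0.17 with an interval of -0.29 to 0.44.

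Among the JUN subunits, Jund, the member known for a high basal level in resting cells, had 24683, 27590 and 23407 in castrated luminal cells, against 40164, 42105 and 59373 in intact luminal cells. The groups did not overlap, and Jund fell 1.85-fold (-0.88 ± 0.15, adjusted p = 0.00167). Jun, the strongest activator of the family, had 16839, 17621 and 15569 in castrated luminal cells, against 21011, 27179 and 44262 in intact luminal cells. These groups did not overlap either, and Jun fell 1.76-fold (-0.82 ± 0.20, adjusted p = 0.0193), but without intact luminal replicate 3, its highest array, the difference was -0.52 and did not pass (adjusted p = 0.0572). Junb, an early gene whose protein can restrain JUN, had 165, 224 and 114 in castrated luminal cells, against 193, 171 and 271 in intact luminal cells, overlapping groups with a difference of -0.33 ± 0.59.

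Atf3, a stress-induced factor that can pair with JUN proteins and often represses, had 13754, 13120 and 14650 in castrated luminal cells, against 23344, 21411 and 22441 in intact luminal cells. The groups stood well apart and Atf3 fell 1.62-fold (-0.69 ± 0.17, adjusted p = 0.0229). Ier3, an immediate early gene linked to cell survival, had 16512, 18158 and 14813 in castrated luminal cells, against 9969, 9867 and 12921 in intact luminal cells. Castrated arrays were again all above intact ones, and Ier3 rose 1.52-fold (0.60 ± 0.16, adjusted p = 0.0303). Egr1, a zinc finger factor induced together with Fos, had 17880, 19255 and 15321 in castrated luminal cells, against 19019, 21197 and 30618 in intact luminal cells. The highest castrated and the lowest intact array overlapped by little, and Egr1 did not pass (-0.41 ± 0.17, adjusted p = 0.202). By position alone, 2 genes lay higher and 3 lower with no overlap between groups, which held for 14.9% and 16.8% of all genes tested (31.8% in either direction). With the castrated arrays, 5 of 8 fibroblast markers, all 5 seminal vesicle transcripts and the leukocyte marker Cd52 (-5.56 ± 0.77) fell, and their part in these differences was not tested. The ratio of the 3' to the 5' control probe set, a sign of RNA quality, was 1.08 to 1.11 for Actb in castrated luminal against 0.781 to 0.950 in intact luminal arrays, without overlap. For Gapdh it was 5.09 to 7.87 in castrated luminal against 6.66 to 7.88 in intact luminal arrays, and the part of RNA quality was not tested. Leaving out single arrays cost calls: without castrated luminal replicate 1, 2 or 3 in turn 2 of the 10 genes passed, namely Fosl1 and Jund, and without intact luminal replicate 3 there were 3.

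**Figure D2:**
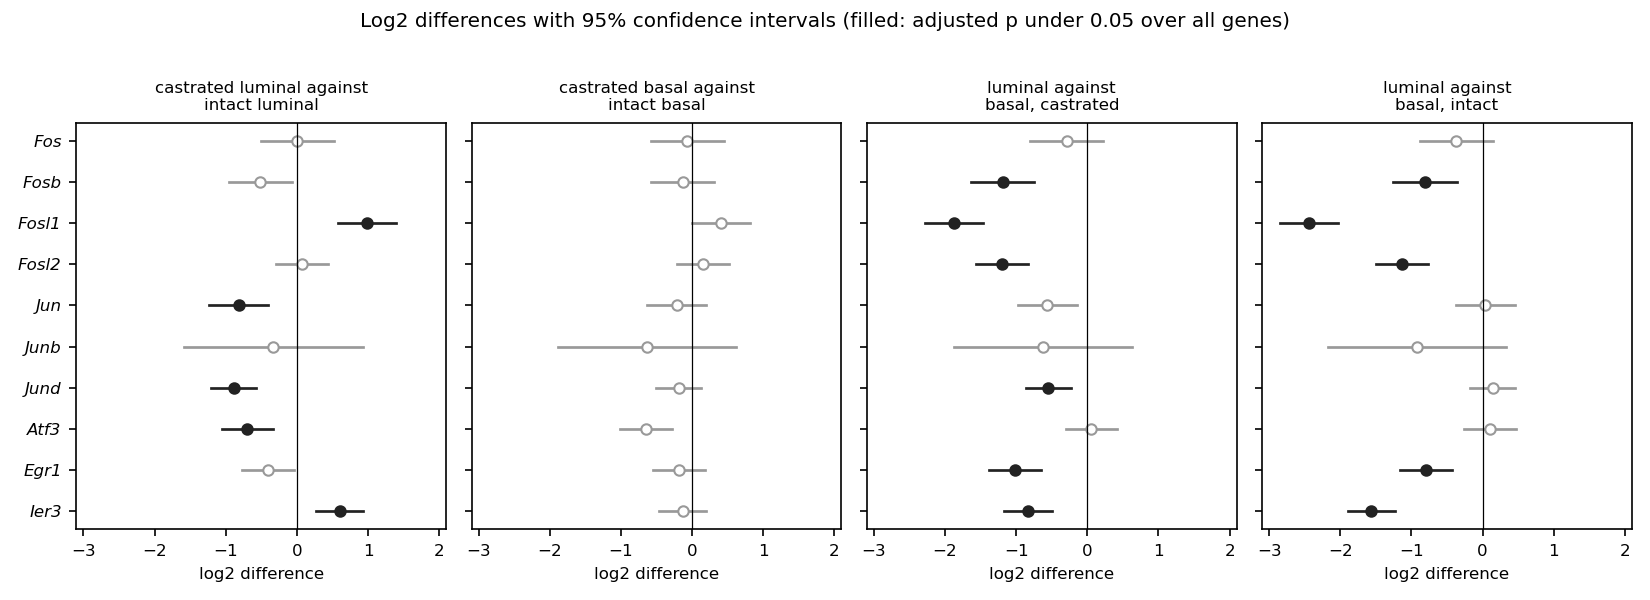
Log2 differences of the 10 genes (rows) with 95% confidence intervals (x axis), 1 panel for each of 4 comparisons, filled where the adjusted p over all 14645 genes was under 0.05. The castration panels hold 5 filled points in luminal and 0 in basal cells, and the filled points of both luminal against basal panels all lie left of 0.

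Because a MAS5 scaling fixes 1 trimmed mean for each array, the same differences were taken under other scalings. Centring each array on the median of all its probe sets, an alternative added after the data were seen, moved the median of all genes by 0.38, and other scalings moved it by -0.07 to 0.09 in this comparison. Fosl1 kept its rise under each of them, at 1.11 with quantile normalization, 1.01 with the median of tested genes, 0.91 with the 75th percentile and 1.36 with the all-probe-set median. Ier3 was 0.87 and passed with quantile normalization and 0.98 and passed with the all-probe-set median, but did not pass at 0.63 with the median of tested genes or at 0.53 with the 75th percentile. Jund passed at -0.86 with the median of tested genes and at -0.96 with the 75th percentile. It did not pass at -0.19 with quantile normalization (adjusted p = 0.324) or at -0.50 with the all-probe-set median (adjusted p = 0.112). Jun passed under the 75th percentile alone (-0.89), with -0.39 under quantile normalization, -0.79 under the median of tested genes and -0.44 under the all-probe-set median. Atf3 passed at -0.66 and -0.77 under the median of tested genes and the 75th percentile, and not at -0.37 under quantile normalization or -0.31 under the all-probe-set median. A centring shifts all genes of an array by 1 value, so it cannot change a difference taken relative to the median of all genes. That relative difference was -0.79 for Jund under the deposited scaling and -0.19 under quantile normalization. Relative Fosl1 differences were 1.07 and 1.11 in the same order. The direction of these 5 genes was kept under all 4 other scalings, while their calls were kept under all 4 for Fosl1 only.

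**Figure D3:**
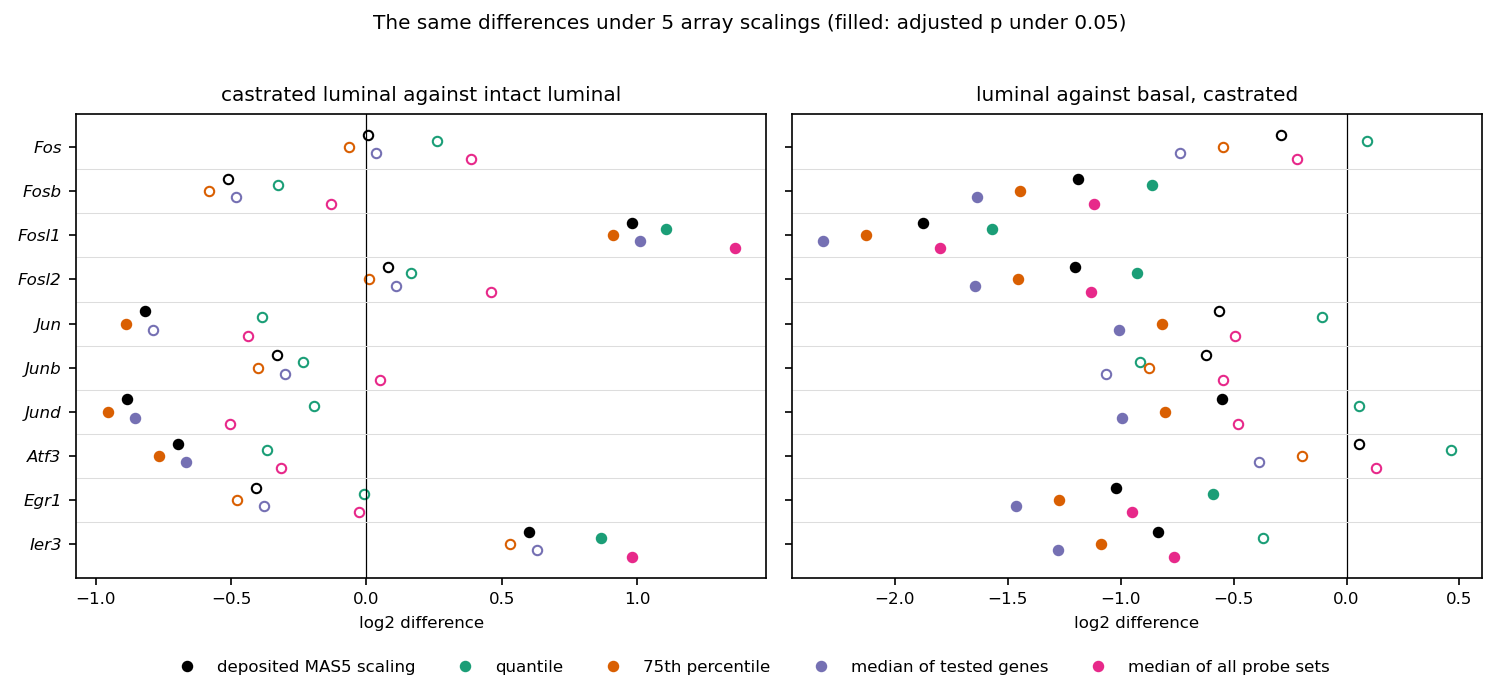
Log2 differences of the 10 genes (rows) under 5 array scalings (colours), filled where the adjusted p was under 0.05, for castrated against intact luminal cells (left) and luminal against basal cells of castrated mice (right). Fosl1 stays filled in both panels, and on the left Jund runs from -0.96 to -0.19.

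In basal cells of castrated against intact mice, 0 of the 10 genes passed in the limma test, against 2.62% of all genes tested (1.12% higher and 1.5% lower). At an unadjusted p under 0.05 there were 2, Atf3 and Fosl1. The share of 2.62% does not refer to this cutoff. By its limma p Fosl1 ranked 2568 among the 14645 genes tested, so many other genes passed this cutoff as well. The median of the 10 genes was -0.16 and that of all genes -0.11. Atf3 had 18086, 12066 and 10768 in castrated basal cells, against 21807, 22305 and 18708 in intact basal cells. The groups did not overlap, with castrated basal replicate 1 nearest to the intact arrays, and the difference was -0.65 ± 0.17, adjusted p = 0.0531. It passed without that array (-0.87, adjusted p = 0.0109) and without intact luminal replicate 3, which enters only through the shared spread (adjusted p = 0.0405). Fosl1 had 30642, 29891 and 43077 in castrated basal cells, against 24057, 23694 and 29420 in intact basal cells. All castrated basal arrays were above the intact ones, by a small margin, and the difference was 0.41 ± 0.19, adjusted p = 0.276. These were the 1 gene lower and the 1 gene higher without overlap, a state that 11.1% of all genes showed downward and 8.71% upward (19.8% together).

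The other 8 genes overlapped between castrated and intact basal cells. Fos had 16642, 17320 and 15694 in castrated basal cells, against 12724, 20601 and 19942 in intact basal cells. Jun had 27234, 22464 and 24422 in castrated basal cells, against 26141, 30711 and 29034 in intact basal cells. Jund had 37730, 33300 and 39914 in castrated basal cells, against 36095, 43673 and 47252 in intact basal cells. For both JUN genes the lowest intact array lay below the highest castrated array. Ier3 had 30568, 24063 and 34296 in castrated basal cells, against 32251, 33380 and 30783 in intact basal cells, and its castrated arrays lay on both sides of the intact ones. Fosb (-0.13 ± 0.21), Fosl2 (0.15 ± 0.17), Egr1 (-0.19 ± 0.17) and Junb (-0.63 ± 0.59) did not pass. The confidence intervals of Jund (-0.51 to 0.13), Jun (-0.63 to 0.20) and Ier3 (-0.46 to 0.20) bound how large a change these arrays leave possible. Under the median of tested genes, which moved the median of all genes by 0.24 here, and under the all-probe-set median, which moved it by 0.34, Fos, Fosb, Jun, Jund, Egr1 and Ier3 turned to values of 0.03 to 0.27, none of which passed. Quantile normalization moved the median of all genes by 0.13 and turned none of them. Between castrated and intact basal cells, 4 of 8 fibroblast markers and 3 of 5 seminal vesicle transcripts fell. Of 10 leukocyte markers 1 rose, Lyz2 (2.40 ± 0.59), and 0 fell. The part of these markers in the differences of the 10 genes was not tested.

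Whether castration acted differently on the genes in luminal and in basal cells was tested as an interaction, the luminal difference minus the basal one. In limma 0 of the 10 genes passed, against 1.15% of all genes (0.676% higher and 0.471% lower). At an unadjusted p under 0.05 there were 3, and the 1.15% does not refer to this cutoff. The weakest of the 3, Jun, ranked 1734 by its limma p among the 14645 genes tested, so many other genes passed it as well. Jund had an interaction of -0.69 ± 0.21, adjusted p = 0.147, Ier3 of 0.73 ± 0.22, adjusted p = 0.146 and Jun of -0.60 ± 0.28, adjusted p = 0.378. Ier3 thus had 0.60 in luminal and -0.13 in basal cells, and its interaction passed with quantile normalization (1.01), with array weights (0.87) and, an alternative added after the data were seen, without replicate 3 of all groups (1.08). Jund had -0.88 in luminal and -0.19 in basal cells, and its interaction passed under none of the alternatives run. Atf3, with -0.69 in luminal and -0.65 in basal cells, had an interaction of -0.04 ± 0.24 and an interval of -0.56 to 0.47.

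Luminal cells had lower levels than basal cells for most of the genes in castrated mice. Fosl1, Fosl2, Fosb, Egr1, Ier3 and Jund fell, so 6 of 10 were lower and 0 higher, against 7.22% lower and 11.2% higher over all genes tested (18.4% together). Their median was -0.73 and that of all genes 0.08. Fosl1 had 9159, 10335 and 8434 in castrated luminal cells, against 30642, 29891 and 43077 in castrated basal cells. Its highest luminal array was far below its lowest basal array, a 3.67-fold difference (-1.87 ± 0.19, adjusted p = 3.71e-06). Fosl2 had 7554, 8743 and 7578 in castrated luminal cells, against 16827, 16992 and 21446 in castrated basal cells, groups that again stood apart (-1.20 ± 0.17, adjusted p = 1.06e-04). Fosb had 10372, 9596 and 11005 in castrated luminal cells, against 23706, 21699 and 25401 in castrated basal cells. The Fosb groups were separate by almost the same factor (-1.19 ± 0.21, adjusted p = 6.64e-04).

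Egr1 had 17880, 19255 and 15321 in castrated luminal cells, against 36950, 31187 and 38304 in castrated basal cells, a 2.03-fold difference (-1.02 ± 0.17, adjusted p = 4.90e-04). Ier3 had 16512, 18158 and 14813 in castrated luminal cells, against 30568, 24063 and 34296 in castrated basal cells (-0.83 ± 0.16, adjusted p = 0.00114). Both genes had every luminal array below every basal one. Jund had 24683, 27590 and 23407 in castrated luminal cells, against 37730, 33300 and 39914 in castrated basal cells (-0.55 ± 0.15, adjusted p = 0.0153). Its groups did not overlap, yet its call was lost with the all-probe-set median (-0.48) and its direction turned with quantile normalization (0.05, adjusted p = 0.763). It was also lost without castrated luminal replicate 1 or 3 and without castrated basal replicate 3, at -0.54 to -0.49. Jun (-0.56 ± 0.20, adjusted p = 0.0554) and Fos (-0.29 ± 0.24, adjusted p = 0.456) did not pass, although their luminal arrays were all below their basal arrays, and Fos turned to 0.09 with quantile normalization. Junb (-0.62 ± 0.59) and Atf3 (0.06 ± 0.17) overlapped between the sorts. In all 8 genes lay lower without overlap, against 17.5% of all genes tested (23.6% higher, 41.1% together). Against the deposited scaling the median of all genes moved by -0.44 with the median of tested genes, by -0.25 with the 75th percentile and by -0.14 with quantile normalization. Fosl1, Fosl2, Fosb and Egr1 kept their calls under all 4 other scalings, and Ier3 lost its call with quantile normalization (-0.37, adjusted p = 0.0666). Relative to the median of all genes, Fosl1 differed by -1.96 under the deposited scaling, and so by construction under each centring. Under quantile normalization it differed by -1.52. Ier3 differed by -0.92 and -0.32 in the same order, and Jund by -0.64 and 0.11. The Actb ratio of 3' to 5' signal was 1.079 to 1.106 in castrated luminal against 0.943 to 1.077 in castrated basal arrays, narrowly without overlap. For Gapdh it was 5.09 to 7.87 against 4.18 to 7.11, with overlap. The part of RNA quality was not tested here either.

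The same comparison in intact mice gave 5 genes lower and 0 higher in luminal cells, against 8.45% lower and 11% higher over all genes (19.5% together). The median of the 10 genes was -0.80 and that of all genes 0.07. Fosl1 had 4023, 4152 and 6172 in intact luminal cells, against 24057, 23694 and 29420 in intact basal cells, a 5.44-fold difference (-2.44 ± 0.19, adjusted p = 2.01e-07). Ier3 had 9969, 9867 and 12921 in intact luminal cells, against 32251, 33380 and 30783 in intact basal cells, a 2.96-fold difference (-1.57 ± 0.16, adjusted p = 2.61e-06). Both were far apart between the sorts. Fosl2 had 7646, 9054 and 6131 in intact luminal cells, against 16843, 16453 and 16202 in intact basal cells (-1.13 ± 0.17, adjusted p = 1.85e-04). Its basal arrays lay within a narrow band above all luminal ones.

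Egr1 had 19019, 21197 and 30618 in intact luminal cells, against 33169, 42558 and 46050 in intact basal cells, without overlap (-0.80 ± 0.17, adjusted p = 0.00353). Fosb had 10701, 13664 and 21709 in intact luminal cells, against 20570, 28166 and 29527 in intact basal cells. Intact luminal replicate 3 of Fosb reached into the basal range, and the difference passed (-0.81 ± 0.21, adjusted p = 0.0114), but not without intact luminal replicate 1 (-0.58, adjusted p = 0.0675) or intact basal replicate 3 (-0.71, adjusted p = 0.0514). Fos passed only without intact luminal replicate 3 (-0.70, adjusted p = 0.0260), with -0.37 ± 0.24 on all arrays. Jun (0.04 ± 0.20), Jund (0.14 ± 0.15), Atf3 (0.10 ± 0.17) and Junb (-0.92 ± 0.59) overlapped and did not pass. The intervals for Jun and Jund, whose brightest array was intact luminal replicate 3, were -0.38 to 0.45 and -0.17 to 0.46. Jun, Jund and Atf3 turned to values of -0.19 to -0.05 with the median of tested genes or the 75th percentile, and none of these passed. No overlap was seen for 4 genes, all lower in luminal cells, against 14% of all genes tested (18% higher, 32% together). The 5 genes kept their calls under all 4 other scalings, which moved the median of all genes by -0.23 to 0.04. The castrated and the intact pairs share no arrays, so Fosl1, Fosl2, Fosb, Egr1 and Ier3 were lower in luminal cells in both sets of mice. Beside these genes, all 8 basal markers were lower in luminal cells in both sets of mice, as were 3 of 8 fibroblast markers in castrated and 2 of 8 in intact mice. Higher in luminal cells were 3 of 5 seminal vesicle transcripts in castrated and 5 of 5 in intact mice, and Cd52 in intact mice (5.76 ± 0.77). Of 10 leukocyte markers, Cd52 was the 1 higher in luminal cells of intact mice and Cd79a the 1 lower. In castrated mice 0 were higher and 2, Tyrobp and Lyz2, were lower. The part of these markers was not tested.

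Placed in order of mean level, Fosl1, Fosl2, Fosb, Egr1 and Ier3 had both basal groups above both luminal groups. For Fosl1 and Ier3 the order was intact luminal lowest, then castrated luminal, and the castrated and intact basal groups did not differ beyond the threshold. For Fosl2, Fosb and Egr1 neighbouring groups within a cell type did not differ beyond the threshold. Jund and Jun had their lowest mean in castrated luminal cells, and their intact luminal and intact basal means differed by less than their confidence intervals. Atf3 had its castrated luminal and castrated basal means close together, below its intact means in both cell types.

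Arrays of 1 group did not vary independently from gene to gene. Intact luminal replicate 3 was the highest of its group for 8 of the 10 genes and had the lowest array weight of all, 0.363. For Fos it stood 0.66 above its group mean on the log2 scale, for Jun 0.59 and for Fosb 0.56, whereas Fosl2 stood 0.29 below it and Atf3 at 0.00. On this array 4 smooth muscle markers summed to 1943, against 389 and 525 on intact luminal replicates 1 and 2. The 6 endothelial markers summed to 1014, against 357 and 324 in the same order. The 8 fibroblast markers summed to 11248, against 6954 and 6596. Its Actb ratio of 3' to 5' signal, 0.781, was the lowest of the 12 arrays. The part of these in its levels was not tested. Intact luminal replicate 1 was the lowest for 6 genes, among them Fos (-0.59), Jun (-0.48) and Fosb (-0.46). The SD of log2 level was 0.04 in castrated luminal against 0.63 in intact luminal cells for Fos and 0.09 against 0.55 for Jun. It was larger in castrated luminal cells for Junb (0.44 against 0.32 in intact luminal cells) and Atf3 (0.080 against 0.062).

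**Figure D4:**
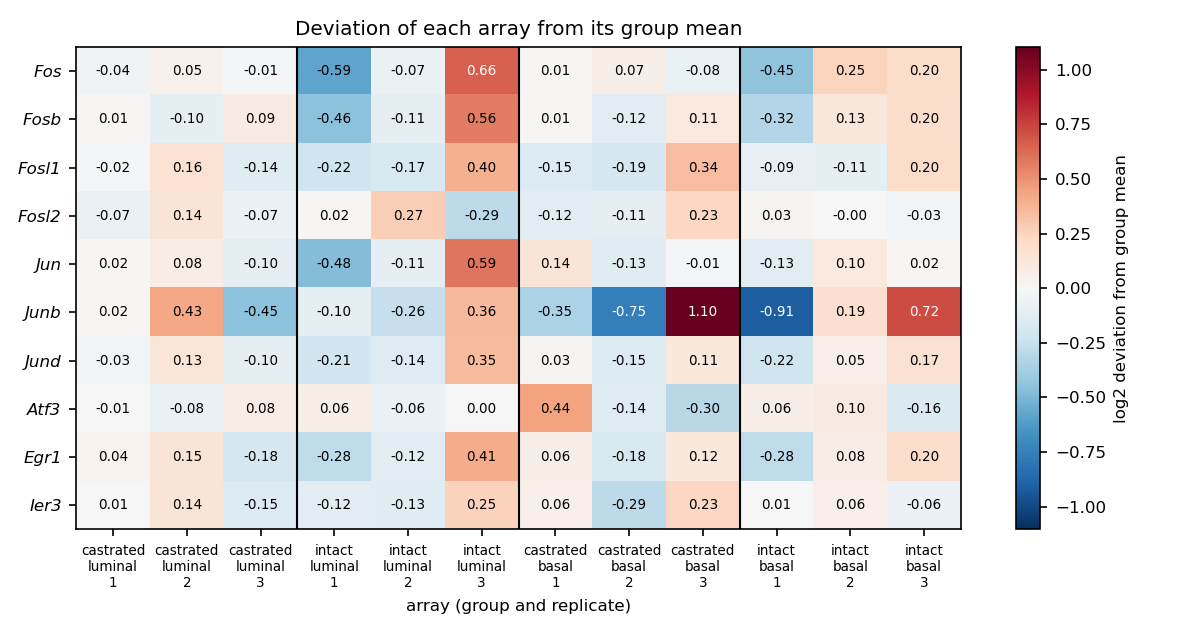
Log2 deviation of each array (columns, by group and replicate) from the mean of its group for the 10 genes (rows), with the value printed in each cell. Intact luminal replicate 3 is positive for 9 genes, by 0.00 to 0.66, and negative for Fosl2 (-0.29).

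Where a gene had a further probe set, it was tested in a fit on 27554 probe sets. The other Fosl1 probe set had 5884, 6235 and 5876 in castrated luminal cells, against 3501, 2760 and 2439 in intact luminal cells, again without overlap (1.06 ± 0.19, adjusted p = 0.00246). It was also lower in luminal than in basal cells of castrated (-1.61 ± 0.19, adjusted p = 1.28e-05) and intact mice (-2.28 ± 0.19, adjusted p = 2.65e-07). The other Jun probe set had 6818, 7453 and 5815 in castrated luminal cells, against 9667, 8051 and 9584 in intact luminal cells. These groups did not overlap, but the difference was smaller and did not pass (-0.44 ± 0.18, adjusted p = 0.182), so the probe sets of Jun disagree on the call. The other Fosl2 probe set was lower in luminal cells of castrated (-2.23 ± 0.38, adjusted p = 5.53e-04) and intact mice (-1.41 ± 0.38, adjusted p = 0.0162) and did not pass between castrated and intact luminal cells (-0.35 ± 0.38, adjusted p = 0.687). The other Jund probe set was dim, at 65, 32 and 83 in castrated luminal cells against 212, 84 and 148 in intact luminal cells, and passed in none of the comparisons.

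Over all 12 arrays the levels of some genes went together. As a description, with arrays that share groups and sorts, Pearson's r of log2 level was 0.973 for Fosb and Egr1, 0.970 for Fosl1 and Ier3, 0.943 for Jun and Jund and 0.917 for Fosl1 and Fosl2. At the other end stood Fosl1 and Atf3 at -0.404, and the median over 45 pairs was 0.568. After the group means were removed, r was 0.986 for Jund and Egr1, 0.930 for Fos and Fosb, 0.888 for Fos and Jun and 0.775 for Fosl1 and Ier3. Fosl1 and Fosl2 then had r = -0.0745. Atf3 then had negative values with 8 of the other 9 genes, down to -0.501 with Junb, and its value with Jun was 0.101.

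**Figure D5:**
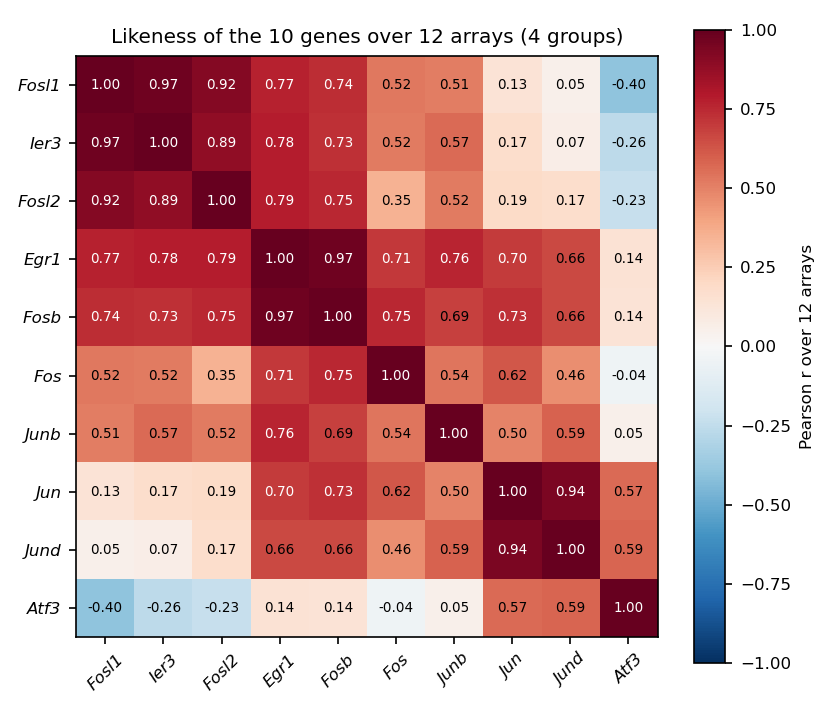
Pearson correlation of log2(signal + 16) between the 10 genes over 12 arrays, with the value printed in each cell. Fosl1, Ier3, Fosl2, Egr1 and Fosb form a block of high values, Jun and Jund another at 0.94, and Atf3 has its lowest value, -0.40, with Fosl1.

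Outside the set, the genes whose levels followed Fos most closely over the 12 arrays were Fndc1 (r = 0.887), Psme3 (0.887), Asb14 (0.884) and Camta1 (0.877). Those nearest to Jun were H13 (0.936), Utrn (0.935), the immediate early RNA-decay factor Zfp36 (0.930) and Gm15728 (0.929). These are the highest of all genes tested and are given as a description.

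The wider immediate early response was read from lists chosen with results of these data known. Of 15 other immediate early transcription factors, 1 rose, 1 fell and 13 did not pass between castrated and intact luminal cells, with a median of -0.05 against -0.09 over all genes. In luminal cells 2.9% of all genes tested rose and 2.96% fell, which is the background of each list in this comparison. With the all-probe-set median 3 of the 15 rose and 0 fell, and with quantile normalization 2 rose and 0 fell. Ier5 rose (0.99 ± 0.16) and Klf6 fell (-0.67 ± 0.14), Klf6 losing its call under 3 of the 4 other scalings. In basal cells 0 of 15 passed in either direction in the castration comparison, against 1.12% higher and 1.5% lower over all genes, and 1 rose with the median of tested genes and with the all-probe-set median. Luminal cells were lower than basal cells for 11 of 15 in castrated and for 10 of 15 in intact mice, with medians of -1.10 and -1.05. Over all genes tested 7.22% were lower in castrated and 8.45% in intact mice, with medians of 0.08 and 0.07, and 11.2% and 11% were higher, which is the background of each list here. In castrated mice the count lower was 9 to 12 under the other scalings. Egr3, a relative of Egr1, had -4.42 ± 0.38 in castrated and -4.01 ± 0.38 in intact mice. The orphan nuclear receptors Nr4a2 (-1.83 ± 0.29 in castrated mice) and Nr4a1 (-1.85 ± 0.24 in intact mice), the Krüppel-like factor Klf4 (-1.33 ± 0.19 in castrated mice) and Myc (-1.05 ± 0.16 in intact mice) were lower in luminal cells with it. Klf2, named after its values were seen, was the 1 gene of the list that was higher in luminal cells, in intact mice (2.07 ± 0.62).

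Of 20 feedback regulators and secreted products of the response, 5 rose and 2 fell in castrated against intact luminal cells, with a median of -0.08. The ERK phosphatase gene Dusp6 (1.59 ± 0.26), Gadd45a (1.34 ± 0.21) and the RNA-decay factor gene Zfp36l1 (0.84 ± 0.16) rose, and Gadd45g fell (-2.25 ± 0.30), each keeping its call under all 4 other scalings. In castrated against intact basal cells 3 rose and 1 fell: the phosphatase gene Dusp4 (1.97 ± 0.38), the kinase gene Sgk1 (0.81 ± 0.17) and the cytokine feedback gene Socs3 (1.54 ± 0.37) were higher and the secreted matrix protein gene Ccn1 was lower (-0.98 ± 0.23). The interaction passed for Ccn1 (1.99 ± 0.32), Socs3 (-2.99 ± 0.52) and Sgk1 (-1.30 ± 0.23). Sgk1 lost that call with quantile normalization. With the median of tested genes and with the all-probe-set median, 5 of the list rose and 0 fell in basal cells. In that comparison Socs3 lost its call with quantile normalization, and Ccn1 with the median of tested genes and the all-probe-set median. Between luminal and basal cells 1 was higher and 8 lower in castrated mice, and 2 higher and 8 lower in intact mice. Dusp6 had -2.35 ± 0.26 in castrated and -3.81 ± 0.26 in intact mice, whereas Dusp4 had 2.37 ± 0.38 and 4.41 ± 0.38 in the same order. The count lower in castrated mice depended on scaling, at 6 with quantile normalization, 12 with the 75th percentile, 13 with the median of tested genes and 5 with the all-probe-set median.

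Among 12 further bZIP partners and relatives, 1 rose in castrated against intact luminal cells: Nfe2l2, which encodes the oxidative stress factor NRF2 (1.02 ± 0.23). With the all-probe-set median 3 rose. None of the 12 passed in the basal castration comparison. Luminal cells were lower for 4 of 12 in both castrated and intact mice, namely Maff (-1.13 ± 0.15 in castrated and -0.67 ± 0.15 in intact mice), Nfe2l2 (-1.34 ± 0.23 and -1.99 ± 0.23), Maf (-2.02 ± 0.36 and -3.26 ± 0.36) and Atf4 (-0.61 ± 0.14 and -0.53 ± 0.14). Atf4 lost its call with the all-probe-set median in both sets of mice, and with quantile normalization in castrated mice. Of 12 upstream kinases and serum response factor partners, 1 rose and 0 fell in castrated luminal cells (1.24 ± 0.35 for Rps6ka3), 1 rose and 0 fell in castrated basal cells (Mrtfa, given no size because its mean level in intact basal cells was under the 40th percentile of those arrays), 1 was higher and 0 lower in luminal against basal cells of castrated mice (1.44 ± 0.43 for Mapk9), and 3 were higher and 2 lower in intact mice. Rps6ka3 lost its call under 2 and Mapk9 in castrated mice under 3 of the 4 other scalings. In castrated luminal cells 0 rose with the 75th percentile and 3 with the all-probe-set median. In castrated basal cells 2 rose with the median of tested genes and with the all-probe-set median. In luminal against basal cells of castrated mice 0 were higher and 1 lower with the 75th percentile and with the median of tested genes, and 0 passed with quantile normalization. Srf, whose product drives Fos and Egr1 transcription, was lower in intact luminal than in intact basal cells (-0.85 ± 0.19).

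Heat shock genes, which tissue dissociation also induces, were counted beside them. Of 9 measured, 1 rose and 3 fell in castrated against intact luminal cells, with Hsph1 at -1.97 ± 0.31, Hspa8 at -0.79 ± 0.15, Dnajb1 at -0.48 ± 0.13 and Hspb1 at 0.73 ± 0.16. With quantile normalization 2 rose and 1 fell, with the median of tested genes 1 rose and 2 fell, and with the all-probe-set median 1 rose and 1 fell. Hspa8 lost its call under 2 and Dnajb1 under 3 of the 4 other scalings. In the basal castration comparison 0 of 9 passed. In the interaction 1 of 9 passed, Hspb1 (1.10 ± 0.23), against 1.15% of all genes. It lost that call with the median of tested genes and with the all-probe-set median. Luminal cells were lower than basal cells for 5 of 9 in castrated mice and 6 of 9 in intact mice, among them Dnajb1 (-1.09 ± 0.13 and -1.05 ± 0.13). In castrated mice the count lower was 3 with quantile normalization, 8 with the 75th percentile, 8 with the median of tested genes and 4 with the all-probe-set median. In intact mice it was 4 with the all-probe-set median and 6 with the others. Dnaja1, named after its values were seen, was among the 5 and turned to 0.05 with quantile normalization. The part of dissociation in the differences of the 10 genes was not tested.

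Of 11 known AP-1 target genes measured, 2 rose and 1 fell in castrated against intact luminal cells: the stress keratin Krt6a (5.24 ± 0.88) and the growth factor gene Hbegf (0.71 ± 0.18) rose and the cyclin gene Ccnd1 fell (-0.84 ± 0.22). With the median of tested genes 1 rose and 0 fell. With the all-probe-set median 5 rose and 0 fell, and the list's median was 0.77, against 0.39 under the deposited scaling. Hbegf lost its call under 1 and Ccnd1 under 2 of the 4 other scalings. None passed in the basal castration comparison. In castrated mice 2 were higher and 3 lower in luminal cells, and in intact mice 3 were higher and 3 lower. The urokinase gene Plau (4.51 ± 0.37 in castrated and 5.84 ± 0.37 in intact mice) and the protease gene Mmp7 (5.85 ± 0.54 and 5.42 ± 0.54) were higher in luminal cells, and the urokinase receptor gene Plaur (-1.44 ± 0.21 and -1.58 ± 0.21) and Hbegf (-1.50 ± 0.18 and -2.05 ± 0.18) were lower.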

How the data were processed

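Gene expression was measured on 12 Affymetrix arrays, 3 for each of 4 groups, from sorted prostate epithelium. RNA was amplified with the NuGEN Pico kit, per the labels' protocols. The deposited values are linear probe set signal intensities from the MAS5 algorithm, run by the authors as the submitters' processing notes state, in a version not given in the sources used here. On every array the 2% trimmed mean of the deposited signal was 500.0, so each array had been scaled to 1 target. Of 45101 probe sets, 64 were controls, 34945 had 1 gene symbol in the platform annotation, 932 several and 9160 none here. The highest-mean probe set stood for each of 18193 genes, and 14645 genes exceeded the 40th percentile of an array on at least 3 arrays. Log2(signal + 16) was fitted with limma 3.58.1 in R 4.3.3 as 4 group means on all 12 arrays (8 residual degrees of freedom, intensity trend), with Benjamini-Hochberg adjustment at 0.05. The fit was tested on simulated data.

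The samples are biological replicates, per the labels. The design text speaks of 3 sets with paired intact animals, but does not tie the numbers to sets. Deviations from group means correlated at -0.00723 to 0.0258 between arrays of the same number and at -0.0325 to 0.0352 between others. For intact luminal against intact basal arrays, the same-number values were 0.00912, 0.0147 and 0.0200. All others of that pair lay lower, at -0.0175 to 0.00840. For Fos, replicate 1 deviated by -0.59 in intact luminal and -0.45 in intact basal cells, and for Ier3 by -0.12 and 0.006. These values do not settle whether the numbers mark sets. The numbers were not used to pair arrays in the reported fit. With them as a block no call of the 10 genes changed.

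Alternatives were quantile normalization, centring on the median or 75th percentile of tested genes or the median of all probe sets, constants of 1 and 64, no filter or a 60th percentile filter, other probe sets, a replicate block, no trend, array weights and leaving out arrays. The 10 genes were named in every comparison, and from the wider lists up to 4 genes per list and comparison by lowest adjusted p. Genes near Fos and Jun were the 4 with the highest Pearson r. The genes and lists were chosen with earlier results of these data known. Promoters came from RefSeq on GRCm38.p6 and were searched with Python 3.11.15.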

Additional observations from a re-analysis of the deposited data

How the results depend on the processing

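Of 1270 member values recomputed under alternatives, 1147 kept their direction and their side of the threshold, 66 turned direction, 42 lost a call and 15 gained one. None of the 66 passed the threshold after turning, and 3 of them were of a called value, all of Jund in luminal against basal cells of castrated mice. Between castrated and intact luminal cells, 5 of the 10 genes passed, but 2 with quantile normalization, 3 with the median of tested genes, 0 without the intensity trend and 2 with the all-probe-set median. Leaving out 1 array at a time gave 2 to 5 there, with 2 without any 1 of the 3 castrated luminal arrays and 3 without intact luminal replicate 3. Between castrated and intact basal cells the count was 0, but 1 with a stricter filter and 1 with all probe sets of a gene averaged, and leaving out 1 array gave 0 to 1, with Atf3 as the gene in each case. The interaction called 0 of the genes, but 1, Ier3, with quantile normalization, 1 with array weights and 1 without replicate 3 of all groups, and 0 to 0 with 1 array left out. Luminal against basal cells of intact mice gave 5, but 3 without the intensity trend and 4 to 6 with 1 array left out. In castrated mice the count was 6, with 5 to 7 when 1 array was left out and 4 to 7 under the other alternatives. Ier3 and Jund did not pass there without the intensity trend or with quantile normalization. The cause of these changes was not tested. With the replicate number as a block the counts were 5, 0, 6, 5 and 0 in the order castrated against intact luminal, castrated against intact basal, luminal against basal in castrated and in intact mice, and the interaction, and no call of the 10 genes changed with this replicate block.

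With the median of tested genes, values turned to 0.054 for Egr1, 0.17 for Fos, 0.11 for Fosb, 0.11 for Ier3, 0.026 for Jun and 0.050 for Jund in castrated against intact basal cells, to -0.39 for Atf3 in luminal against basal cells of castrated mice, to -0.13 for Atf3, -0.19 for Jun and -0.090 for Jund in luminal against basal cells of intact mice and to -0.14 for Fos in the interaction. With the all-probe-set median, values turned to 0.050 for Junb in castrated against intact luminal cells and to 0.16 for Egr1, 0.27 for Fos, 0.21 for Fosb, 0.21 for Ier3, 0.13 for Jun and 0.15 for Jund in castrated against intact basal cells. With quantile normalization, values turned to 0.092 for Fos and 0.055 for Jund in luminal against basal cells of castrated mice and to 0.34 for Atf3, 0.13 for Egr1 and 0.073 for Fosl2 in the interaction. With the 75th percentile, values turned to -0.066 for Fos in castrated against intact luminal cells, to -0.20 for Atf3 in luminal against basal cells of castrated mice and to -0.091 for Atf3, -0.15 for Jun and -0.048 for Jund in luminal against basal cells of intact mice. With array weights, values turned to -0.031 for Fosl2 in castrated against intact luminal cells, to -0.022 for Atf3 in luminal against basal cells of castrated mice and to -0.13 for Jun in luminal against basal cells of intact mice. Without replicate 3 of all groups, an alternative added after the data were seen, values turned to -0.034 for Fosl2 and 0.075 for Junb in castrated against intact luminal cells, to 0.068 for Fos in castrated against intact basal cells, to -0.14 for Atf3 and 0.16 for Junb in luminal against basal cells of castrated mice, to -0.25 for Jun in luminal against basal cells of intact mice and to 0.033 for Egr1 in the interaction. With all probe sets of a gene averaged, values turned to -0.13 for Fosl2 in castrated against intact luminal cells, to 0.16 for Jund in luminal against basal cells of castrated mice and to -0.054 for Jun in luminal against basal cells of intact mice. With another probe set of the gene, values turned to -0.35 for Fosl2 in castrated against intact luminal cells, to 0.88 for Jund in luminal against basal cells of castrated mice, to -0.15 for Jun in luminal against basal cells of intact mice and to 0.41 for Jund in the interaction. With 1 array left out, some values changed sign over their range. In castrated against intact luminal cells these were -0.29 to 0.33 for Fos and -0.067 to 0.21 for Fosl2. In castrated against intact basal cells these were -0.29 to 0.054 for Fos and -0.24 to 0.012 for Ier3. In luminal against basal cells of castrated mice these were -0.095 to 0.28 for Atf3. In luminal against basal cells of intact mice these were -0.26 to 0.28 for Jun and -0.033 to 0.25 for Jund. In the interaction these were -0.20 to 0.18 for Atf3, -0.22 to 0.40 for Fos, -0.22 to 0.063 for Fosl2 and -0.072 to 0.86 for Junb.

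Over all genes, the share called between castrated and intact luminal cells was 5.86%, against 3.79% without the intensity trend, 13.3% with array weights, 3.55% without replicate 3 of all groups and 2.74% to 6.72% with 1 array left out. Between castrated and intact basal cells it was 2.62%, against 1.06% without the trend, 1.38% with array weights, 4.27% with the all-probe-set median and 1.19% to 4.25% with 1 array left out. In luminal against basal cells of castrated mice it was 18.4%, with 11.7% to 21.2%. In the interaction it was 1.15%, against 0.184% without the trend, 0.567% without replicate 3 of all groups and 0.444% to 1.11% with 1 array left out. The share of calls that were higher was 49.4% between castrated and intact luminal cells and 80.2% with the all-probe-set median. Between castrated and intact basal cells it was 42.7%, against 72.0% with the median of tested genes, 81.6% with the all-probe-set median and 27.1% without the trend. In luminal against basal cells of castrated mice it was 60.8%, against 32.7% with the median of tested genes and 43.8% with the 75th percentile. In intact mice it was 56.6%, against 41.9% and 44.0% in the same order. In the interaction it was 58.9%, against 41.5% with the median of tested genes.

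The limits are those of 3 arrays a group on a scaled intensity with no measure of total RNA. Junb, dim on every array, had standard errors of 0.59, close to the median over all genes, so that only large differences could have passed. For the brighter genes, with smaller standard errors, the shares over all genes are not a background of equally precise genes. The other genes lay near the top of the arrays' range, where saturation was not tested.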
